A study of Mus musculus with 9 samples.

Results

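The interferon-stimulated genes examined here are 43 mouse genes whose transcription is induced by interferon, and their RNA was measured by RNA-seq in primary mouse lung endothelial cells (MLEC). All 43 were found by symbol among the 37104 loci of the deposited tables. The set was chosen by measured values: *Rsad2* and *Cmpk2* had differed between the control groups in earlier results of these data. The comparison of the control groups is therefore a description, whereas E3KO against both controls was not part of this rule and was tested. The members and the tests were, however, chosen with earlier results of these data known.

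The study asked how loss of the JNK protein kinases in endothelial cells alters gene expression, and examined 3 groups of 3 libraries. All mice were C57BL/6J, 10 to 12 weeks of age, and carried the germline *Jnk3*-/- deletion (*Mapk10*), the controls included. ECtrl mice were Cdh5-Cre+ and had intact kinase genes (Jnk1+/+ and Jnk2+/+). EfCtrl mice had floxed kinase genes (Jnk1LoxP/LoxP and Jnk2LoxP/LoxP) but were Cdh5-Cre-, and E3KO mice had the same floxed genes together with Cdh5-Cre+. *Jnk1* is *Mapk8* and *Jnk2* is *Mapk9*, and the *Cdh5* promoter drives Cre in vascular endothelium. The controls thus differ from each other both in Cre and in the LoxP alleles, which cannot be told apart. Every library was made from its own isolation from the pooled lungs of several mice, by selection for ICAM2 and culture, and the p-values measure the spread between these isolations.

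Type I interferons are secreted when a cell detects foreign or misplaced nucleic acid. The type I interferon receptor signals through the kinases JAK1 and TYK2 to a complex that contains STAT2 and IRF9 and binds the interferon-stimulated response element (ISRE) in target promoters. Interferon gamma acts through another promoter element, the gamma-activated sequence (GAS). The induced proteins detect viral RNA, block its translation or copying, hold virus particles at membranes, attach the ubiquitin-like protein ISG15 to other proteins and prepare antigens. Many cell types, endothelial cells among them, keep a low level of this program without infection.

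Promoter sequence was available for 34 of the 43 genes in the RefSeq promoter table (build GRCm38.p6), with windows of 300 bases that begin 250 bases before the start site. The core of the ISRE, searched on both strands as GAAA, any 2 bases and again GAAA, was present in 14 of the 34 genes (41.2%) compared with 3.99% of 27025 genes in the table. These were *Bst2*, *Ddx58*, *Eif2ak2*, *Gbp2*, *Gbp3*, *Ifih1*, *Ifit1*, *Ifit3*, *Ifitm3*, *Isg15*, *Oas1a*, *Oas3*, *Rsad2* and *Stat2*. The letters TTCNNNGAA of the GAS, which read the same on both strands, were present in 9 of the 34 genes (26.5%) and in 9.55% of all genes. A match of the GAS letters overlapped a match of the ISRE core in *Bst2* and in *Ifitm3*. A match is a description of these letters and not a measured binding site, and the absence of a match refers only to this window.

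Windows of 60 bases upstream of the start site are shown for 6 genes, with the ISRE cores in capitals, to show how the cores are arranged: *Rsad2* because it chose the set, *Isg15*, *Ifit1*, *Bst2* and *Oas1a* because they hold several cores, and *Gbp3* because it is among the genes with the largest fitted differences in E3KO. Each is written 5′ to 3′ on the strand of its gene: *Rsad2* chr12:26456538-26456597 (minus), *Isg15* chr4:156200850-156200909 (minus), *Ifit1* chr19:34640779-34640838 (plus), *Bst2* chr8:71537562-71537621 (minus), *Oas1a* chr5:120907526-120907585 (minus) and *Gbp3* chr3:142559980-142560039 (plus).
Rsad2: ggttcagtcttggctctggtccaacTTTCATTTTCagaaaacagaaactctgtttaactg
Isg15: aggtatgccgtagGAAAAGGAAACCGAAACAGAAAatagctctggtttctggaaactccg
Ifit1: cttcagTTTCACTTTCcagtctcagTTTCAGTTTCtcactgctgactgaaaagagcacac
Bst2: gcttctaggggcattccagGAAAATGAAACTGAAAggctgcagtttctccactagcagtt
Oas1a: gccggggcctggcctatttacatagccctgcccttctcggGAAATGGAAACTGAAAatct
Gbp3: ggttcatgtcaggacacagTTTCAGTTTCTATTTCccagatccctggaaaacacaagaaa
The *Isg15* window held 3 cores that overlap in 1 run, and those of *Bst2*, *Oas1a* and *Gbp3* held 2 overlapping cores. The 2 cores of *Ifit1* were separate, and *Rsad2* had 1 core.

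The unit was FPKM, a count of sequenced fragments scaled to the length of the transcript and to the total of the library. It allows levels to be compared between genes, but the depth of a library cannot be read from it. The endothelial genes *Cdh5* (613 to 943 FPKM) and *Pecam1* (643 to 798 FPKM) were abundant in all 9 libraries. Of 11 endothelial markers tested in E3KO against the controls, limma called *Emcn* higher (973 ± 105 FPKM in the controls and 1495 ± 54.7 in E3KO, log2 fold change 0.63, SE 0.12, adjusted p = 0.0260) and *Cldn5*, a tight junction gene, lower (217 ± 42.5 and 114 ± 15.6 FPKM, -0.92, SE 0.18, adjusted p = 0.0322). The call of *Emcn* was lost without EfCtrl replicate 1 or 3 or any one of the E3KO libraries (adjusted p from 0.0540 to 0.0948), and that of *Cldn5* without any library other than ECtrl replicates 1 and 2 (0.0526 to 0.104). Among all genes tested in this contrast, limma called 1.54% higher and 3.26% lower. *Vwf* was at most 2.15 FPKM and was not tested. In bulk RNA, fewer cells of a type and less RNA per cell cannot be told apart. The FPKM of all loci summed to between 656089 and 908401 in 8 libraries but to 9841810 in the library labelled E3KO replicate 1, where 96.4% was in 10 symbols. Without symbols with a mean of 5000 FPKM or more, the 9 sums were between 388537 and 433172.

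The targeted genes were examined first. *Mapk9* was 44.1, 50.9 and 47.9 FPKM in ECtrl, 45.5, 42.7 and 47.9 in EfCtrl and 27.6, 35.1 and 20.7 in E3KO. *Mapk9* was reduced in E3KO (log2 fold change -0.75, SE 0.15, limma with Benjamini-Hochberg adjusted p = 0.0359). It was lower in all E3KO libraries, but the call was lost when any library other than E3KO replicate 2 was left out, with adjusted p from 0.0565 (without ECtrl replicate 1) to 0.0983 (without E3KO replicate 3). *Mapk8* was between 14.0 and 17.9 FPKM in the controls, and 8.77 and 4.65 in E3KO replicates 2 and 3, but 20.7 in the library labelled E3KO replicate 1 (log2 fold change -0.67, SE 0.35, limma adjusted p = 0.285). Without it, *Mapk8* was called (log2 fold change -1.18, limma adjusted p = 0.0298), and without E3KO replicate 3 the log2 fold change was -0.21. In the library labelled E3KO replicate 1, *Mapk8* was thus above every control library and *Mapk9* below every control library. These are FPKM of whole genes, which do not show whether the floxed part was deleted. Fold changes of single genes against the mean of the controls that moved by over 1.5 times without that library are given both ways. *Mapk10* was at most 0.270 FPKM in any library.

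Of the 43 genes, 35 had a mean of 2 FPKM or more in at least 1 group and were tested among 10605 genes. The other 8 were *Ifit3*, *Oas1a*, *Oas2*, *Oas3*, *Oasl1*, *Isg20*, *Mx1* and *Mx2*, whose highest value in any library was 2.76 FPKM. Just inside the limit, the highest group mean of *Herc6* was 2.33 FPKM, and just outside it that of *Ifit3* was 1.83 FPKM. *Herc6* in E3KO (1.12 FPKM) and *Zbp1* in ECtrl (1.40 FPKM) were below the limit in 1 group and passed through the others. Fold changes are differences of log2(FPKM + 1), which understates the change of low genes.

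No interferon-stimulated gene was called in E3KO against the mean of the controls. With limma and a Benjamini-Hochberg adjusted p under 0.05, 0 of 35 were called, whereas 4.8% of all genes tested were (509 genes, of which 163 or 1.54% were higher and 346 or 3.26% were lower). The number of all genes called was 9 without E3KO replicate 3 (66.7% of them higher), 101, 149 and 237 without EfCtrl replicates 3, 1 and 2, 289 without E3KO replicate 2 and 337 without ECtrl replicate 1, so the share of all genes depends on these libraries. At an unadjusted p under 0.05, 4 of the 35 were higher (6.93% of all genes) and 2 were lower (16.9% of all genes), which is 17.1% compared with 23.8% of all genes. This number was 2 without the library labelled E3KO replicate 1 (22.6% of all genes) and 3 without ECtrl replicate 1 (20%). It was 9 without ECtrl replicate 3 or EfCtrl replicate 2 (22.9% and 20.1%), and 10 with each library centered on its median (22.5%). Whether the 35 genes were below or above the share of all genes thus depends on these choices. By an exact two-sided permutation test over all 84 assignments of 3 libraries to E3KO, 5 of 35 had a p under 0.05, compared with 25.6% of all genes. After adjustment this test called 0 of 35 and 0% of all genes, and the smallest p that it allows is 0.0119.

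The fitted log2 fold changes of the 35 genes were between -0.95 and 0.83, with a median of 0.20 compared with -0.08 for all genes. Positive values were found for 25 of 35 genes, compared with 38.2% of all genes. In 1 gene, *Trim25*, every E3KO library was above every control library (5.18% of all genes), and in 1, *Herc6*, every E3KO library was below (11.5% of all genes). The spread between replicates was wide, with a median residual SD of 0.33 on the log2 scale compared with 0.22 for all genes, and 28 of the 35 genes were above the latter. Without the library labelled E3KO replicate 1 the median fold change was 0.13, without ECtrl replicate 2 it was 0.05, and without EfCtrl replicate 3 it was also 0.05.

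**Figure D1:**
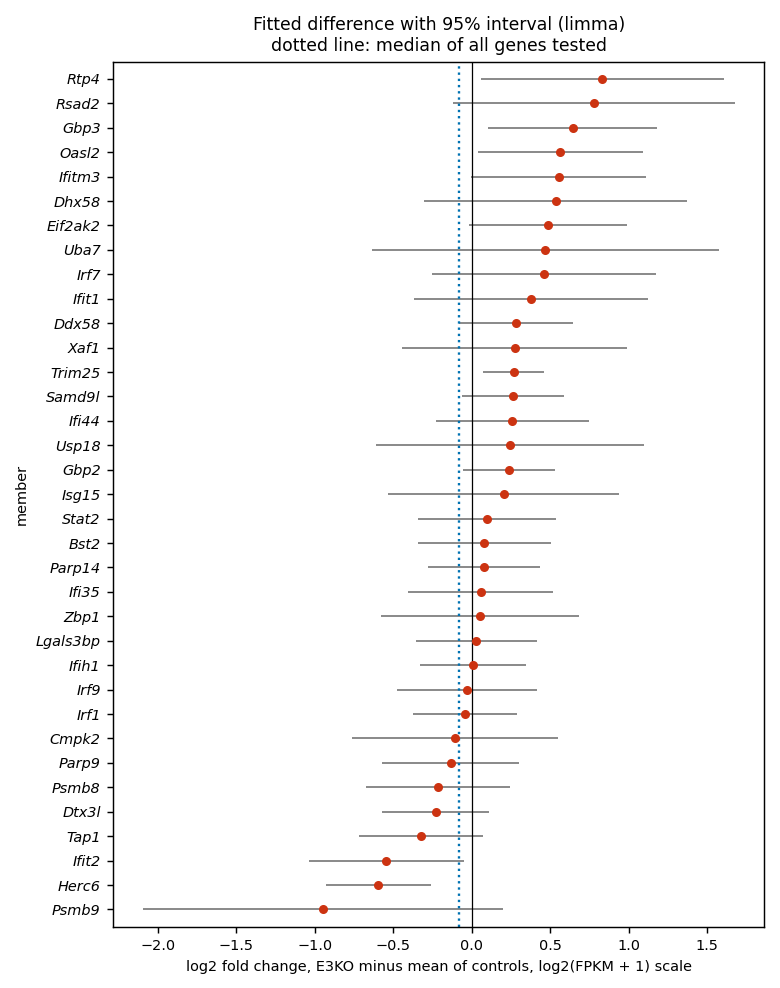
Fitted log2 fold change of each tested gene in E3KO against the mean of the controls (points, log2(FPKM + 1) scale, with 95% intervals from limma), ordered by size; the dotted line is the median of all genes tested (-0.08). Most points lie to the right of that line, and the intervals of most genes cross 0.

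The transcription factors of the response were *Stat2* and *Irf9*, partners in the complex that binds the ISRE, *Irf7*, which amplifies the induction of type I interferon, and *Irf1*, which also acts downstream of interferon gamma. *Stat2* (chromosome 10, 128270576 to 128292849) was 10.6, 7.84 and 12.7 FPKM in ECtrl, 13.2, 14.0 and 10.4 in EfCtrl and 14.6, 13.3 and 9.07 in E3KO. *Irf9* (chromosome 14, 55591708 to 55610030) was 17.0, 11.1 and 17.3 FPKM in ECtrl, 17.0, 19.3 and 13.5 in EfCtrl and 18.1, 16.5 and 11.9 in E3KO, and its row also carries *Rnf31*. For both genes the groups overlapped, with the lowest value in ECtrl replicate 2. *Irf7* (chromosome 7, 141228784 to 141266481) was 6.70, 4.20 and 8.88 FPKM in ECtrl, 13.7, 15.2 and 5.87 in EfCtrl and 15.0, 10.6 and 10.3 in E3KO. These coordinates are those of its row, and the gene itself spans 141262706 to 141266481. All E3KO values of *Irf7* were above those of ECtrl but were within the range of EfCtrl, where replicate 3 was far below the other two. *Irf1* (chromosome 11, 53770014 to 53778374) was 10.3, 8.90 and 12.4 FPKM in ECtrl, 10.2, 8.82 and 9.94 in EfCtrl and 12.0, 9.53 and 7.98 in E3KO, and no group stood apart. In E3KO against the controls, *Irf7* had a log2 fold change of 0.46 (95% interval -0.25 to 1.17, limma adjusted p = 0.394) and *Stat2* of 0.10 (-0.34 to 0.53). Without the library labelled E3KO replicate 1 these were 0.30 and -0.03, and *Irf9* and *Irf1* were -0.15 and -0.18. With it, the values of *Irf9* (-0.03, -0.47 to 0.41) and *Irf1* (-0.04, -0.37 to 0.29) changed sign, to 0.04 and 0.03, when each library was centered on its median.

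The sensors recognize nucleic acid. *Ddx58* (RIG-I), *Ifih1* (MDA5) and *Dhx58* (LGP2) are RNA helicases, *Zbp1* binds left-handed nucleic acid and *Eif2ak2* (PKR) is a kinase that stops translation when it binds double-stranded RNA. *Ddx58* (chromosome 4, 40203773 to 40239828) was 35.4, 44.0 and 53.9 FPKM in ECtrl, 46.1, 61.2 and 44.6 in EfCtrl and 51.8, 62.3 and 57.7 in E3KO. E3KO replicate 2 was the highest of the 9 libraries, and E3KO replicates 1 and 3 were below EfCtrl replicate 2 (log2 fold change 0.28, 95% interval -0.08 to 0.64, limma adjusted p = 0.318). *Zbp1* (chromosome 2, 173206612 to 173218923) was 1.19, 0.556 and 2.46 FPKM in ECtrl, 3.39, 3.82 and 1.88 in EfCtrl and 2.91, 1.60 and 1.94 in E3KO. The mean of E3KO was between those of the controls for *Zbp1* (0.05, -0.58 to 0.68, and -0.11 without the library labelled E3KO replicate 1). The fitted fold changes of all 5 sensors were positive, between 0.01 for *Ifih1* and 0.53 for *Dhx58*. *Dhx58* rested on the library labelled E3KO replicate 1, at 13.6 FPKM against 5.76 and 5.29 in the other E3KO libraries and a fold change of 0.15 without it. *Eif2ak2* was 41.8, 28.1 and 24.1 FPKM in E3KO compared with 21.9 ± 4.54 (SD, n = 6) in the controls (0.49, SE 0.22, limma adjusted p = 0.223, and 0.26 without the library labelled E3KO replicate 1).

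The effectors that act on RNA, nucleotides or the translation of viral RNA included the genes that chose the set. *Rsad2* encodes viperin, a radical SAM enzyme that makes a chain-terminating ribonucleotide, and *Cmpk2*, its neighbor on chromosome 12, encodes a nucleotide kinase whose product is the substrate of viperin. *Rsad2* (chromosome 12, 26442753 to 26456452) was 4.53, 9.46 and 19.1 FPKM in ECtrl, 15.5, 26.1 and 12.9 in EfCtrl and 17.7, 29.0 and 23.2 in E3KO. The ECtrl values differed among themselves more than the group means did, and ECtrl replicate 3 was above the lowest value of each other group. In E3KO the log2 fold change of *Rsad2* was 0.78 (95% interval -0.12 to 1.68, limma adjusted p = 0.266, exact two-sided permutation p = 0.167). *Cmpk2* (chromosome 12, 26469204 to 26479835) was 6.26, 4.17 and 9.73 FPKM in ECtrl, 9.50, 12.2 and 7.21 in EfCtrl and 4.52, 9.26 and 8.54 in E3KO. The fitted value of *Cmpk2* in E3KO was -0.11 (-0.76 to 0.55), and its sign changed without the library labelled E3KO replicate 1 (0.17).

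*Ifit1* and *Ifit2* encode tetratricopeptide repeat proteins, of which IFIT1 binds viral RNA that lacks the host cap modification. *Ifit1* (chromosome 19, 34640871 to 34650009) was 7.30, 4.15 and 10.7 FPKM in ECtrl, 10.3, 14.4 and 6.60 in EfCtrl and 15.8, 11.1 and 7.76 in E3KO, and the groups overlapped (0.38, 95% interval -0.37 to 1.12, and 0.14 without the library labelled E3KO replicate 1). *Ifit2* (chromosome 19, 34550694 to 34576419) was 6.56, 4.25 and 7.49 FPKM in ECtrl, 7.38, 6.78 and 5.80 in EfCtrl and 2.54, 4.83 and 5.03 in E3KO. All E3KO values of *Ifit2* were below 5 of the 6 control values but ECtrl replicate 2 was lower than 2 of them. The fitted value of *Ifit2* was -0.54 (SE 0.22, limma unadjusted p = 0.0343, adjusted p = 0.177), and -0.30 without the library labelled E3KO replicate 1. The 2 *Ifit* genes thus had fitted values of opposite sign in the same libraries.

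The OAS family makes or resembles enzymes that make 2′-5′-linked oligoadenylate, which activates RNase L. *Oasl2* (chromosome 5, 114896936 to 114912234) was 2.30, 2.92 and 4.52 FPKM in ECtrl, 5.56, 6.24 and 2.79 in EfCtrl and 6.32, 6.13 and 6.05 in E3KO. The E3KO values were close together and above all control values except EfCtrl replicate 2 (0.57, SE 0.23, limma unadjusted p = 0.0388, adjusted p = 0.187). *Oasl1* (0.606 to 2.76 FPKM), *Oas1a* (0.713 to 2.16), *Oas2* (0 to 0.872) and *Oas3* (0 to 0.176) were not tested, and neither were *Ifit3* (0.702 to 2.35) and the exonuclease *Isg20* (0.0601 to 1.62). *Samd9l*, which restrains translation, was 26.8 ± 3.88 FPKM (SD, n = 3) in ECtrl, 28.8 ± 5.27 in EfCtrl and 33.4 ± 3.40 in E3KO (0.26, 95% interval -0.06 to 0.59).

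Among the effectors at membranes, *Ifitm3*, which blocks the fusion of virus with endosomes, had the highest mean level of the 43 genes at 427 FPKM. *Ifitm3* (chromosome 7, 141009586 to 141010770) was 282, 258 and 504 FPKM in ECtrl, 423, 490 and 292 in EfCtrl and 585, 536 and 476 in E3KO. ECtrl replicate 3 and EfCtrl replicate 2 overlapped E3KO, while the other 4 control libraries were lower (0.55, SE 0.24, limma adjusted p = 0.212). *Bst2* (tetherin, chromosome 8, 71534264 to 71537437), which holds budding virus at the cell surface, was 239, 197 and 276 FPKM in ECtrl, 290, 269 and 192 in EfCtrl and 238, 318 and 218 in E3KO, and no group stood apart (0.08, 95% interval -0.35 to 0.50, and 0.13 without the library labelled E3KO replicate 1). *Gbp3* (chromosome 3, 142560052 to 142573209), a guanylate-binding GTPase, was 7.38, 6.97 and 9.04 FPKM in ECtrl, 8.61, 11.8 and 6.37 in EfCtrl and 19.8, 11.8 and 10.1 in E3KO. EfCtrl replicate 2 was above E3KO replicate 3, and the fold change of *Gbp3* was 0.64 (SE 0.23, limma unadjusted p = 0.0244, adjusted p = 0.151), or 0.38 without the library labelled E3KO replicate 1. *Gbp2*, of the same family, was 16.5 ± 2.36 FPKM (SD, n = 6) in the controls and 19.5 ± 1.10 (SD, n = 3) in E3KO (0.24, 95% interval -0.06 to 0.53). The dynamin-like GTPases *Mx1* (0 to 0.321 FPKM) and *Mx2* (0.287 to 0.938 FPKM) were at or near 0 in every library.

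**Figure D2:**
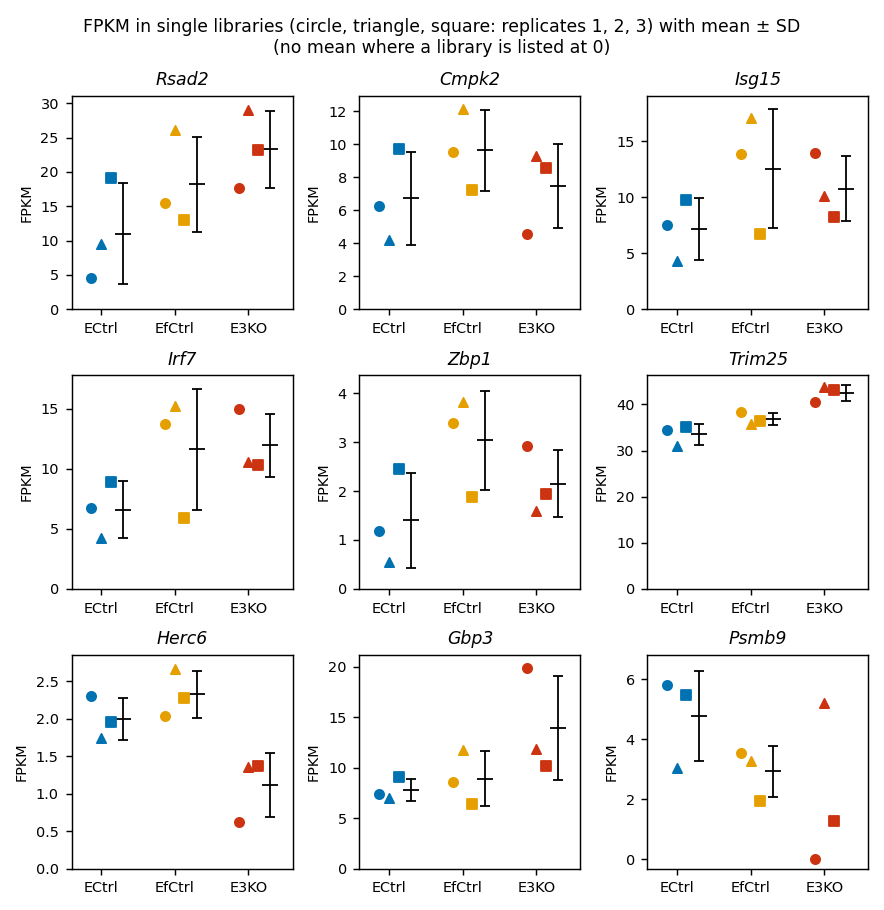
FPKM of 9 interferon-stimulated genes in each library (blue ECtrl, orange EfCtrl, red E3KO; circle, triangle and square are replicates 1, 2 and 3), with the mean and SD of each group of 3 at its right where no library is listed at 0. Every E3KO library is above every control library for *Trim25* (40.4 to 43.8 FPKM, as for 5.18% of all genes tested). Every E3KO library is below for *Herc6* (0.627 to 1.37 FPKM, as for 11.5%), which passed the limit of 2 FPKM only through the controls. E3KO and the controls overlap for the other 7 genes.

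The ISG15 system attaches and removes a ubiquitin-like protein. *Isg15* encodes the modifier, *Uba7* its activating enzyme, *Herc6* the main ligase for it in the mouse, *Usp18* the protease that removes it and also restrains the interferon receptor, and *Trim25* a ubiquitin ligase that acts on RIG-I. *Isg15* (chromosome 4, 156199424 to 156200818) was 7.47, 4.28 and 9.77 FPKM in ECtrl, 13.8, 17.1 and 6.71 in EfCtrl and 13.9, 10.1 and 8.23 in E3KO. E3KO lay within the range of EfCtrl (0.20, 95% interval -0.53 to 0.94), and the difference was 0.018 without the library labelled E3KO replicate 1. *Trim25* (chromosome 11, 88999376 to 89020293) was 34.5, 31.0 and 35.1 FPKM in ECtrl, 38.4, 35.8 and 36.4 in EfCtrl and 40.4, 43.8 and 43.1 in E3KO. It had the smallest residual SD of the 35 genes (0.07), and its fold change of 0.27 (SE 0.08) had an exact two-sided permutation p of 0.0119 and a limma adjusted p of 0.113. With each library centered on its median, *Trim25* passed the threshold (0.34, adjusted p = 0.0472), and over all alternatives its adjusted p was between 0.0472 and 0.334.

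*Herc6* (chromosome 6, 57580992 to 57665136) was 2.30, 1.75 and 1.95 FPKM in ECtrl, 2.04, 2.66 and 2.28 in EfCtrl and 0.627, 1.36 and 1.37 in E3KO. All 3 E3KO libraries were below the 6 controls, with a log2 fold change of -0.59 (SE 0.15) -0.42 without the library labelled E3KO replicate 1 and -0.95 with a pseudocount of 0.1. Its exact two-sided permutation p was 0.0119 and its limma adjusted p was 0.0589. *Herc6* passed the limit of 2 FPKM only through the controls, and its adjusted p was 0.0896 with no minimum and 0.140 with a mean-variance trend. *Usp18* was 11.1 ± 6.28 FPKM in ECtrl, 14.6 ± 6.61 in EfCtrl and 14.1 ± 2.27 in E3KO (SD, n = 3), with a difference of 0.24 and a wide interval of -0.61 to 1.10. When a library was left out, the difference of *Usp18* was between 0.04 (without ECtrl replicate 2) and 0.43 (without ECtrl replicate 3), and it was 0.07 without EfCtrl replicate 3. The row of *Uba7* also names *Cdhr4*, *Gm20662* and *Ip6k1*, so its value cannot be assigned to *Uba7*, and it was 47.9 FPKM in E3KO replicate 2 and at most 12.6 in any other library.

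The ADP-ribosyl transferases *Parp9* and *Parp14* and the ubiquitin ligase *Dtx3l*, which forms a complex with PARP9, were at moderate levels. Their mean over the 9 libraries was 19.0 FPKM for *Parp9*, 10.9 for *Parp14* and 8.57 for *Dtx3l*. The fitted differences in E3KO were -0.14 for *Parp9* (95% interval -0.57 to 0.30), 0.08 for *Parp14* (-0.28 to 0.43) and -0.23 for *Dtx3l* (-0.57 to 0.11). Without the library labelled E3KO replicate 1 they were -0.27, -0.06 and -0.05. *Parp9* and *Dtx3l* overlap on opposite strands, and the use of strand in the authors' counting is not given in the sources used here. The same holds for *Psmb9* and *Tap1*, for *Irf7* and *Phrf1*, for *Irf1* and *Gm17334* and for *Rtp4* and *Masp1*, and the rows of *Psmb9* and *Tap1* carry the same coordinates, as do those of *Parp9* and *Dtx3l*.

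The 3 genes for antigen processing had negative fitted values in E3KO, as did most of all genes tested (38.2% were positive). *Psmb8* and *Psmb9* encode subunits of the immunoproteasome, which cuts peptides for MHC class I, and *Tap1* part of the transporter that carries them into the endoplasmic reticulum. *Psmb9* (chromosome 17, 34181988 to 34197225) was 5.82, 3.06 and 5.48 FPKM in ECtrl and 3.56, 3.30 and 1.96 in EfCtrl. In E3KO, *Psmb9* was listed at 0 in the library labelled replicate 1 and was 5.23 and 1.28 in replicates 2 and 3, so the group spanned nearly the whole range. Its fold change of -0.95 (SE 0.50, limma adjusted p = 0.286) was -0.31 without that library and -2.04 with a pseudocount of 0.1. *Tap1* was 8.09 ± 1.55 FPKM (SD, n = 6) in the controls and 6.24 ± 1.09 (SD, n = 3) in E3KO (-0.32, 95% interval -0.72 to 0.07, and -0.20 without the library labelled E3KO replicate 1). *Psmb8* was 4.89 ± 1.42 FPKM in the controls and 3.95 ± 0.309 in E3KO (-0.22, -0.67 to 0.24), with a difference between -0.34 (without EfCtrl replicate 3) and -0.13 (without ECtrl replicate 1) when a library was left out.

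The remaining genes have less uniform roles. *Rtp4* encodes a chaperone of receptors that also inhibits RNA viruses, *Xaf1* a factor that promotes cell death, *Lgals3bp* a secreted glycoprotein, and *Ifi44* and *Ifi35* cytoplasmic proteins induced by interferon. *Rtp4* (chromosome 16, 23609919 to 23614222) was 7.22, 4.29 and 11.8 FPKM in ECtrl, 9.19, 14.7 and 7.74 in EfCtrl and 23.9, 16.1 and 10.6 in E3KO. It had the largest positive fold change of the 35 genes (0.83, SE 0.34, limma unadjusted p = 0.0380, adjusted p = 0.186), which was 0.56 without the library labelled E3KO replicate 1. ECtrl replicate 3 and EfCtrl replicate 2 were above E3KO replicate 3. *Lgals3bp* (chromosome 11, 118392751 to 118402092), the second most abundant of the 43 genes, was 386, 285 and 445 FPKM in ECtrl, 414, 409 and 319 in EfCtrl and 380, 433 and 332 in E3KO, with a difference of 0.03 (95% interval -0.36 to 0.41). *Ifi44* was 29.8 ± 10.3 FPKM (SD, n = 6) in the controls and 34.6 ± 3.17 (SD, n = 3) in E3KO. *Xaf1* was 33.0, 19.4 and 11.8 FPKM in E3KO, and its fold change of 0.27 became -0.09 without the library labelled E3KO replicate 1. *Ifi35* differed by 0.06 (-0.40 to 0.52), and by 0.03 without that library.

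The genes also varied together between replicates of the same group. All 35 tested genes were higher in ECtrl replicate 3 than in ECtrl replicate 2, as were 57.5% of all genes, with a median difference of 0.49 compared with 0.06. In EfCtrl, 33 of 35 were higher in replicate 2 than in replicate 3 (47.3% of all genes), with a median difference of 0.53 compared with -0.01. These pairs of libraries were picked after the values were seen. ECtrl replicate 2 was the lowest of its group for 28 of 35 genes (39.9% of all genes), and EfCtrl replicate 3 for 30 (32.0%). In E3KO, replicate 3 was the lowest for 23 genes (26.1% of all genes). The median deviation of the 35 genes from their mean over the 9 libraries was -0.19, -0.39 and 0.13 in ECtrl, 0.12, 0.30 and -0.23 in EfCtrl and 0.19, 0.21 and -0.09 in E3KO. ECtrl replicate 3 thus lay beside EfCtrl replicate 1, and EfCtrl replicate 3 beside ECtrl replicate 1. For all genes the corresponding medians were between -0.14 and 0.06.

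**Figure D3:**
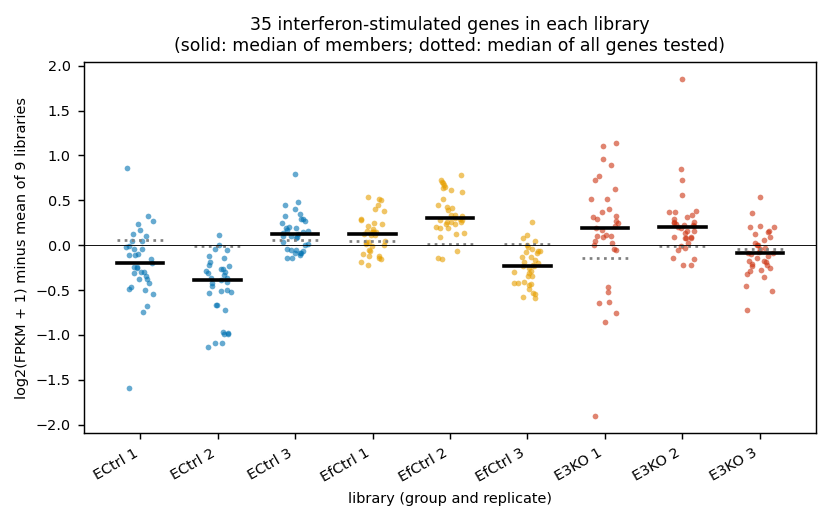
Deviation of each of the 35 tested genes from its mean over the 9 libraries (points, log2(FPKM + 1) scale), with the median of the 35 genes (solid line) and of all genes tested (dotted line) in each library. The medians range from -0.39 in ECtrl replicate 2 to 0.30 in EfCtrl replicate 2, and the 3 groups overlap.

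**Figure D4:**
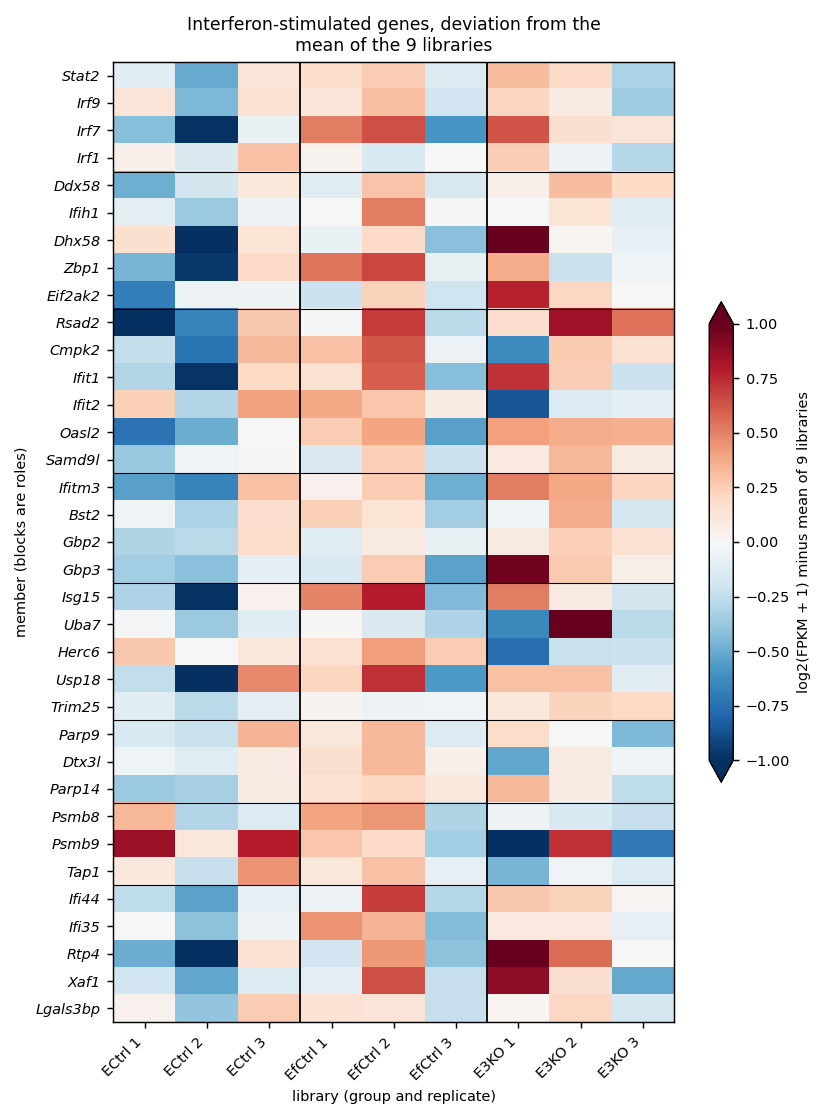
The same deviations for each gene (rows, in blocks by role) and library (columns); red is above and blue below the gene's mean, and the color scale ends at -1 and 1. The column of ECtrl replicate 2 is below the mean in 33 of 35 rows and that of EfCtrl replicate 2 above it in 32.

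Between the control groups, whose values chose the set, most of the genes were higher in EfCtrl by mean FPKM (38 of 43). The fitted log2 fold change of EfCtrl over ECtrl was positive in 32 of 35 genes compared with 48% of all genes. The median was 0.21 compared with -0.01 for all genes, and it was 0.09 without ECtrl replicate 2. The largest fold changes were those of *Rsad2* (0.81), *Zbp1* (0.79), *Isg15* (0.70), *Irf7* (0.68), *Cmpk2* (0.50), *Ifit1* (0.47) and *Oasl2* (0.45), and *Psmb9* was -0.54. No gene was called by limma in this comparison, neither of the 35 nor of all genes (0%). At an unadjusted p under 0.05 there was 1 of the 35, *Zbp1*, compared with 1.84% of all genes. When a library was left out this number was between 0 (as without ECtrl replicate 1) and 7 (without EfCtrl replicate 3). Every EfCtrl library was above every ECtrl library for 3 of the 35 genes, *Ifih1*, *Trim25* and *Parp14* (3.48% of all genes). Because this contrast was used to choose the genes, nothing is read from these counts.

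E3KO was also set against each control alone. These comparisons share libraries and include the difference between the controls that chose the set, so their values are a description. The median fold change was 0.31 over ECtrl and 0.04 over EfCtrl. By limma 0 of 35 genes were called against ECtrl (2.25% of all genes) and 0 of 35 against EfCtrl (0.952% of all genes), and nothing is read from these counts. *Rsad2* was 1.18 above ECtrl (SE 0.45) and 0.37 above EfCtrl (SE 0.45), and *Isg15* was 0.55 above ECtrl but -0.15 relative to EfCtrl (SE 0.37 for both).

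The rest of the pathway was examined by lists, in which symbols that share a row of the tables were counted once. Among all genes tested, 4.8% were called by limma, 23.8% had an unadjusted p under 0.05 and the median fold change was -0.08. Of 11 ligand genes, 9 were listed at 0 in every library, including *Ifnb1*, *Ifna4* and *Ifng*, and the others were *Il15* (at most 2.04 FPKM) and *Ifne* (at most 1.11 FPKM). Of the receptors and kinases, *Ifnlr1* was at most 0.201 FPKM and was not tested, and the 7 rows tested held 0 called by limma and 1 at an unadjusted p under 0.05. *Ifnar2* and *Il10rb* share a row. *Ifnar1*, a subunit of the type I receptor, was 51.2 ± 3.40 FPKM (SD, n = 6) in the controls and 61.2 ± 9.35 (SD, n = 3) in E3KO, and the kinase *Jak1* was 145 ± 7.47 FPKM and 132 ± 18.1 FPKM. *Tyk2* was 6.73 ± 0.691 and 4.90 ± 1.09 FPKM, with every E3KO library below the controls but a limma adjusted p of 0.140 (log2 fold change -0.40, and -0.24 without the library labelled E3KO replicate 1). Of 4 other transcription factors tested, 0 were called by limma and 0 had an unadjusted p under 0.05. Of 7 inhibitors tested, among them *Socs3*, 0 were called by limma and 2 had an unadjusted p under 0.05.

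Of 11 other sensors and adaptors tested, 1 was called higher and 0 lower. *Aim2*, which senses cytosolic DNA and is itself induced by interferon, was 1.89, 4.75 and 2.83 FPKM in ECtrl, 2.79, 4.79 and 2.31 in EfCtrl and 10.8, 12.6 and 17.8 in E3KO. *Aim2* rose in E3KO by 1.82 on the log2 scale (SE 0.27, limma adjusted p = 0.0140), with no overlap between E3KO and the controls. Without E3KO replicate 3, the rise was 1.63 and the adjusted p was 0.0746. Of 22 other rows of interferon-induced genes tested, 0 were called higher and 1 lower, with a median of -0.08 (also -0.08 for all genes). *Igtp* and *Irgm2* share a row, as do *Gbp4* and *Gbp9*. *Tnfsf10*, which encodes the death ligand TRAIL, was 1.93, 2.78 and 2.36 FPKM in ECtrl, 1.95, 2.18 and 1.72 in EfCtrl and 0.362, 1.15 and 0.942 in E3KO. The fitted difference of *Tnfsf10* was -0.81 on the log2 scale (SE 0.16, limma adjusted p = 0.0321), and -1.40 with a pseudocount of 0.1. It passed the limit of 2 FPKM only through ECtrl (mean 2.36 FPKM, compared with 1.95 in EfCtrl), and with no minimum it was not called (adjusted p = 0.0547). The call was also lost without ECtrl replicate 2 or 3, any one of the EfCtrl libraries or E3KO replicate 3, with adjusted p from 0.0547 to 0.0916. Of 9 further antigen presentation genes tested, 0 were called by limma, 4 had an unadjusted p under 0.05 (23.8% of all genes) and the median was -0.41 (-0.08 for all genes). Of these, the MHC class I gene *H2-K1* was 99.2 ± 20.9 FPKM in the controls and 62.0 ± 24.0 in E3KO (-0.71, SE 0.26, limma adjusted p = 0.155).

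Markers of other cells were also measured, and some were abundant. The summed FPKM of 17 macrophage and monocyte markers was 84.6, 182 and 161 in ECtrl, 225, 303 and 183 in EfCtrl and 239, 337 and 369 in E3KO, with *Lyz2* the most abundant. *Lyz2* was 28.0, 111 and 80.5 FPKM in ECtrl, 123, 191 and 107 in EfCtrl and 133, 212 and 221 in E3KO. *Cd68* and *Fcer1g* reached 50.6 and 37.4 FPKM. By limma 0 of the 7 macrophage markers tested were called (4.8% of all genes), 4 had an unadjusted p under 0.05 (23.8% of all genes) and the median fold change in E3KO was 0.80 (-0.08 for all genes). Between the controls their median was 0.92 higher in EfCtrl than in ECtrl (-0.01 for all genes), the direction of most interferon-stimulated genes. *Ptprc* and *Csf1r*, which define leukocytes and macrophages, were at most 1.59 and 2.26 FPKM. Within EfCtrl the macrophage sums had the same order as the median deviations of the interferon-stimulated genes, with both highest in replicate 2 and lowest in replicate 3. Within ECtrl the highest sum was in replicate 2, which had the lowest deviation, and within E3KO it was in replicate 3, which also had the lowest deviation. The part of these cells in the interferon-stimulated values was not tested. Of 4 plasmacytoid dendritic cell markers, *Siglech* and *Ly6d* were listed at 0 in all libraries, *Ccr9* was at most 0.0237 FPKM, and *Tcf4*, which endothelial cells also express, was 134 to 181 FPKM. Of 6 lymphocyte markers 4 were listed at 0. The fibroblast markers summed to between 4.58 and 27.1 FPKM, and those of smooth muscle and pericytes to between 7.93 and 56.2 FPKM, with *Acta2* the most abundant (at most 35.1 FPKM). In E3KO against the controls the median fold change was -0.76 for the 4 fibroblast markers tested and -1.12 for the 2 of smooth muscle and pericytes, with 0 called by limma, and between the controls both medians were higher in EfCtrl (0.69 and 0.80). Their part in the interferon-stimulated values was not tested either.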

How the data were processed

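RNA-seq was performed on 9 libraries of MLEC (ECtrl, EfCtrl and E3KO, 3 each). The authors aligned paired-end reads to the mm10 build with TopHat, estimated FPKM with Cufflinks (version 1.0.3 in the submitters' processing notes) and compared groups with Cuffdiff. The deposited tables hold the FPKM of each library and the authors' fold changes, p-values and q-values, and only the FPKM were used here. Groups came from the sample titles. Depth is unknown, so no counting error is given.

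Symbols that name several loci were left out of the fit, which leaves 33353 symbols, of which 10605 had a group mean of at least 2 FPKM. The values log2(FPKM + 1) of all 9 libraries entered 1 linear model of the 3 groups in limma 3.58.1 under R 4.3.3, with its default moderation, and p-values were adjusted by the Benjamini-Hochberg method over all genes tested. The contrast of E3KO with the mean of the controls was orthogonal to that between the controls. For single genes, an exact two-sided permutation test set the 3 E3KO libraries against the 6 controls. The scripts were tested on simulated data. All members are named, with full values for the 8 with the largest change in each of these contrasts, the 5 most abundant and 4 transcription factors. The members, roles, lists and tests were chosen with earlier results of these data known. Some genes of these lists were not analysed here. Promoter windows were from RefSeq (GRCm38.p6), which is the same build, and gene overlaps from GENCODE M21. The coordinates given with FPKM values are those of the rows, which can be wider than the gene. Alternatives were the pseudocount, the FPKM minimum, a fold change limit, centering of libraries, a mean-variance trend, the replicate number as a block, each control alone and the omission of each library.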

Additional observations from a re-analysis of the deposited data

How the results depend on the processing

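The number of interferon-stimulated genes called in E3KO against the controls was 0 in every alternative except centering of each library on its median, which called 1, *Trim25* (477 genes called in all, 43.8% of them higher). The number of all genes called, 509, was 202 with the replicate number as a block, 239 against ECtrl alone, 101 against EfCtrl alone and between 9 (without E3KO replicate 3) and 408 when a library was left out. Libraries of the same number were not paired by the study, and their deviations correlated at -0.04 to 0.12. Under the block 3 interferon-stimulated genes had an unadjusted p under 0.05, compared with 21.2% of all genes. There were 10 with centering (22.5% of all genes) and 8 with a mean-variance trend (23.8%). When a library was left out the number was between 2 and 9. Between the controls 0 to 4 genes were called when a library was left out. The median fold change of the interferon-stimulated genes stayed positive, between 0.04 (EfCtrl alone) and 0.31 (ECtrl alone). Under the block *Mapk9* had an adjusted p of 0.0756, *Emcn* of 0.0579, *Cldn5* of 0.0715, *Aim2* of 0.0294 and *Tnfsf10* of 0.0433. With no minimum FPKM, *Mapk9* had 0.0597, *Cldn5* 0.0593 and *Tnfsf10* 0.0547, and with a mean-variance trend *Tnfsf10* had 0.0783. Against EfCtrl alone neither *Mapk9* nor *Tnfsf10* was called (0.108 for *Tnfsf10*), and against ECtrl alone *Mapk9* had 0.0630. *Emcn* and *Cldn5* were called against neither control alone (0.0572 to 0.0769). Some fitted values changed sign. With centering, *Irf1* was 0.028 and *Irf9* 0.041. Against ECtrl alone, *Cmpk2* was 0.14 and *Irf9* 0.037. Against EfCtrl alone, *Stat2* was -0.035, *Irf1* 0.011, *Ifi35* -0.080, *Parp14* -0.10, *Ifih1* -0.16, *Zbp1* -0.34 and *Isg15* -0.15. When a library was left out, the ranges were -0.15 to 0.14 for *Irf9*, -0.081 to 0.14 for *Ifi35*, -0.066 to 0.13 for *Lgals3bp*, -0.059 to 0.093 for *Ifih1*, -0.11 to 0.20 for *Zbp1*, -0.18 to 0.084 for *Irf1*, -0.27 to 0.17 for *Cmpk2*, -0.082 to 0.19 for *Bst2*, -0.030 to 0.29 for *Stat2*, -0.085 to 0.62 for *Xaf1*, -0.061 to 0.23 for *Parp14*, -0.30 to 0.95 for the row of *Uba7* and -0.27 to 0.046 for *Parp9*. The causes were not tested.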

Other observations

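In the library labelled E3KO replicate 1, the RNA sensor gene *Tlr7* was 36.4 FPKM and at most 2.29 in any other library. The epithelial secretory gene *Scgb1a1* was 46.2 FPKM in that library and at most 1.87 in the others, and the sum of 7 epithelial markers was 51.3 FPKM compared with 2.55 to 6.05. The causes were not tested.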
